A study of Mus musculus with 6 samples.

Results

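The cytosolic ribosomal protein genes were followed through FGF8 pretreatment and brown adipogenic differentiation. They were chosen by symbol alone, as every listed gene named Rpl or Rps with a number, together with Rplp0, Rplp1, Rplp2 and Rpsa, leaving out the Rps6k kinases and 10 pseudogene symbols ending in -ps. This gave 90 genes of the 26264 listed, with 46 proteins of the large (60S) subunit, 31 of the small (40S) subunit, and 13 paralogs, retrogene copies or look-alikes such as Rps19bp1, which encodes a protein that binds Rps19 and is no ribosomal protein. Of the 90 genes, 87 averaged 20 or more normalized counts across the 6 libraries. Rpl10l and Rps27rt had 0 counts in every library, and Rpl3l averaged 10.3 normalized counts.

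Per the paper's methods, the cells were brown preadipocytes from the stromal vascular fraction of interscapular brown fat of wild-type Bl6N mice, young adults. All of them had been immortalized with retroviral SV40 large T antigen. They were left untreated (the methods call these cells vehicle-treated) or pretreated with 5.5 nM FGF8, a paracrine fibroblast growth factor, for 48 h. They were harvested at once (day 0), on day 3, or on day 9 of differentiation with insulin, T3, IBMX, dexamethasone, indomethacin and rosiglitazone. The sample titles write the last day as D7, and the paper's results count it as day 9 after FGF8, that is 2 days of induction and 7 more. The paper's methods give 6 days of differentiation. D7 and day 9 were taken to be the same day. Each of the 6 conditions is 1 library of polyadenylated RNA, so no difference between 2 libraries has a replicate check. The number of mice behind the cell line, and how many clones it holds, are not given in the sources used here, and the growth text in the sample labels speaks of white preadipocytes where the titles and the series design speak of immortalized brown cells.

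A ribosome is assembled from ribosomal RNA and from the proteins encoded by these genes, nearly all of them present once per particle, so their transcripts are made in broadly matched amounts in every growing cell. Many of the mRNAs begin with a pyrimidine tract, the 5' TOP motif, through which mTOR signalling and Larp1 control their translation and stability. Most ribosomal protein genes also have processed pseudogenes scattered over the genome, which makes their short reads hard to place.

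The start sites show this shared feature. The sequences below are RefSeq's, from a table of build GRCm38.p6, placed in GRCm39 by exact match. They are shown for the 7 listed genes whose FGF8 library was at least 1.2-fold higher on every day, for Rpl10 and Rplp0, which were lower in the FGF8 library on at least 2 days, and for Rps3, the core gene that fell most from day 0 to day 3. Of the first 7, 4 carry a tract by the rule below and Rpl37, Rps13 and Rps25 do not. The rule looks only near the annotated start, so a tract at a start that lies elsewhere would be missed. Each window holds 30 bases and the annotated start is base 16. Capitals mark a tract that begins with C within 5 bases of the start and goes on for at least 5 more pyrimidines.
Rpl14, chr9:120400568-120400597, plus strand: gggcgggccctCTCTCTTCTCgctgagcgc
Rpl35, chr2:38895129-38895158, minus strand: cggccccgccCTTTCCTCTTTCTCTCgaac
Rps6, chr4:86775590-86775619, minus strand: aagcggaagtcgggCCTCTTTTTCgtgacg
Rps18, chr17:34174625-34174654, minus strand: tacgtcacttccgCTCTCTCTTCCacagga
Rpl37, chr15:5146080-5146109, plus strand: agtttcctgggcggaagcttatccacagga
Rps13, chr7:115933411-115933440, minus strand: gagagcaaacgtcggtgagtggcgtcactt
Rps25, chr9:44318996-44319025, plus strand: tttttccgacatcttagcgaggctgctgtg
Rpl10, chrX:73314407-73314436, plus strand: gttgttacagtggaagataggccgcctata
Rplp0, chr5:115697511-115697540, plus strand: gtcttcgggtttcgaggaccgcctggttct
Rps3, chr7:99132902-99132931, minus strand: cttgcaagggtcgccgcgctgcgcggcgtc

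Of the 90 genes, 69 had a start in the RefSeq table (68 could be placed in GRCm39), and 29 of the 69 (42.0%) had such a tract at a listed start, against 11.7% of all 19526 genes there. In the 250 bases before the start, on either strand, CCGGAAG (an ETS-type motif) was found in 27.5% of the ribosomal protein genes and in 9.79% of all genes. TCTCGCG was found in 17.4% against 3.17%. GGGCGG (SP1-type) was about as common in both, in 49.3% and 44.3%, as was AAGATGG (YY1-type), in 7.25% and 4.81%, and TATAAA was found in 7.25% against 13.2%. A match here is a run of letters and not a measured binding site.

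The libraries held 16403254 to 38551551 counts. Adipocyte markers (Pparg, Adipoq, Fabp4, Plin1, Lipe) summed to 399 to 554 normalized counts on day 0 and to 210058 to 426865 later, and brown markers (Ucp1, Cidea, Elovl3, Ppargc1a) to 51.4 and 1366 on day 0 and to 123818 and 145864 on day 9. The 5 macrophage markers summed to 43.5 to 152.6, with Adgre1 at 0 in all 6 libraries and Ptprc in 5. The 4 muscle markers summed to at most 48.8, with Myod1 and Ckm at 0 throughout. The 2 day 0 libraries stood apart from the later ones beyond differentiation. Xist had 2530 and 5837 counts there and 7 to 26 later, while the Y-linked genes Ddx3y, Eif2s3y, Kdm5d and Uty were present in all 6 libraries. Ifi202b had 10511 and 5711 counts on day 0 and at most 1 later, and Gbp2b had 4837 and 935 and then at most 1. Whether the day 0 libraries came from the same cell line as the later ones was not tested. Differentiation and whatever else separates these libraries cannot be told apart in any comparison of day 3 with day 0, whereas FGF8 was always compared with untreated cells of the same day.

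Ribosomal protein transcripts took up a larger share of all counts after FGF8 on each day, and a smaller share as days passed. In untreated cells the share was 2.50% on day 0, 1.98% on day 3 and 1.63% on day 9. After FGF8 it was 3.12%, 2.23% and 1.83%. These are 1.25, 1.12 and 1.12 times the untreated shares. The exact binomial 95% intervals are narrow (2.50 to 2.51% and 3.11 to 3.13% on day 0) and cover counting error only. Since the share does not depend on scaling between libraries, it is set beside the fold changes below; in bulk RNA, a change in the mix of cells and a change in RNA per cell cannot be told apart.

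**Figure D1:**
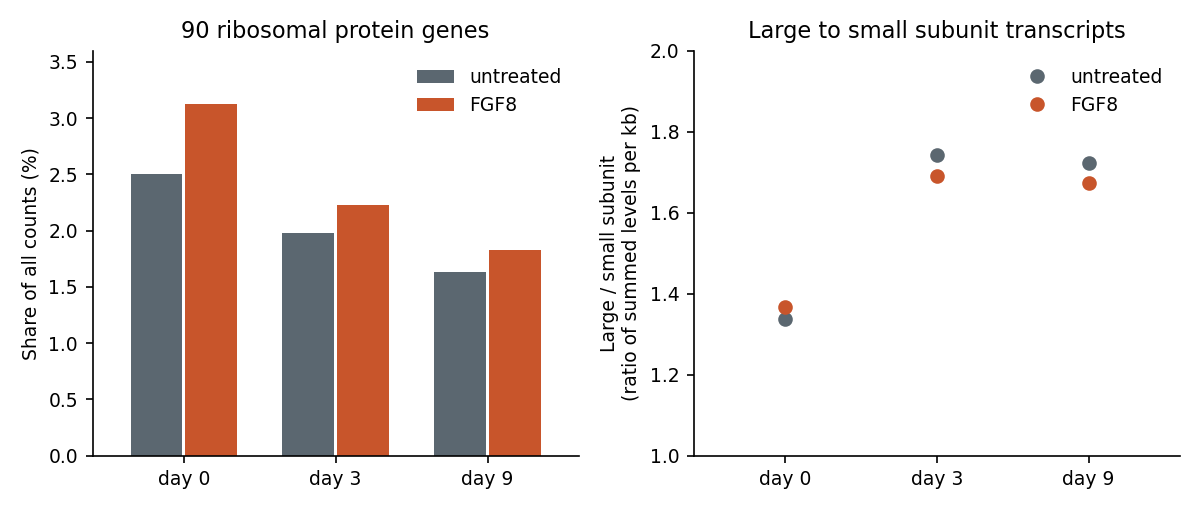
Left, the share of all counts (%) in the 90 genes for each library, untreated in grey and FGF8 in orange; the FGF8 bar is the taller one on each day, from 3.12% on day 0 to 1.83% on day 9. Right, the summed level of the 46 large subunit genes over that of the 31 small subunit genes, each as normalized counts per kb of coding sequence (axis from 1 to 2); it is 1.34 and 1.37 on day 0 and 1.67 to 1.74 later.

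Levels were compared between genes as normalized counts per kb of coding sequence, averaged over the 6 libraries. Among the 77 core subunit genes the median was 13643 and the middle of the distribution ran from 10253 to 17559, a ratio of 1.71 between the quartiles. In single libraries this ratio was 2.44 (untreated) and 2.30 (FGF8) on day 0 and 1.72 to 1.77 later. On day 0 the highest core gene was Rpl39 (untreated) or Rpl4 (FGF8), and Rpl29 was lowest in both. Averaged over the 6 libraries, Rpl41, which encodes the shortest ribosomal protein (75 coding bases), was highest at 100731. Such a short coding length makes this value uncertain. Rps29, Rpl4, Rps24 and Rps20 followed. Rps27 was lowest of the core genes at 90.2, with only 15 to 46 counts in any library. Every 50-base stretch of its coding sequence also occurs elsewhere in GRCm39, and how reads with several matches were counted is not given. Of the other genes with a coding length and a mean of 20 or more normalized counts, Rpl39l, Rps23rg1, Rps4l and Rps19bp1 were the 4 lowest. Rpl32l and Rpl37rt have no coding sequence in the annotation used and were not ranked.

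The ratio of large to small subunit transcripts per kb was 1.34 (untreated) and 1.37 (FGF8) on day 0, 1.74 and 1.69 on day 3, and 1.72 and 1.67 on day 9. Much of that step was Rpl41: without it the ratio was 1.27 and 1.30 on day 0 and 1.34 to 1.42 later. Without Rpl41, the untreated and FGF8 ratios of day 3 were 1.39 and 1.34, a gap of about the size of the step from 1.30 to 1.34 between days 0 and 3 after FGF8.

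The first comparison asked whether FGF8 pretreatment changed the ribosomal protein transcripts on each day. Nearly the whole set was slightly higher in the FGF8 library. On the scale of log2(normalized count + 1), the median difference of the 87 genes was 0.25 on day 0, 0.30 on day 3 and 0.22 on day 9, while that of all 13256 genes was 0.04, 0.07 and 0.07. The value was above 0 for 73, 82 and 82 of the 87 genes on the 3 days, against 53.1%, 54.9% and 58.0% of all genes. The genes stayed close together: their standard deviation was 0.22, 0.22 and 0.21, against 1.08, 0.79 and 0.72 over all genes. Of the 87 genes, 80 averaged 1000 or more normalized counts, as did 6021 of the genes that edgeR tested. Rarer genes have larger counting error, and the part of abundance in the spread and in the numbers of genes below was not tested.

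The shift was small for any single gene. At a rule of 1.2-fold, 38 of 87 genes (43.7%) were higher on day 0, where 34.2% of all genes were, and 0 were lower, where 29.8% of all genes were. On day 3, 52 genes (59.8%) were higher (background 35.8%) and 0 were lower (30.9%). With library totals, 33 genes (37.9%) were higher on day 3 (28.3% of all genes). On day 9, 31 genes (35.6%) were higher (27.7%) and 1 was lower (24.0%). With size factors within the pair, 15 genes (17.2%) were higher on day 9, below the 20.7% of all genes. At 2-fold, 1 gene was higher on day 0, 2 on day 3 and 0 on day 9, where 7.61%, 4.11% and 1.09% of all genes were, and Rps4l alone was lower, on day 9 (9.75% of all genes were). The counting interval of the difference lay wholly above 0 for 68, 78 and 76 genes (37.9%, 41.7% and 42.0% of all genes) and wholly below 0 for 5, 3 and 3 (31.0%, 32.9% and 28.3%). Few ribosomal protein genes were lower on any day, while the count of higher ones lay closer to the background, above all on day 9.

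**Figure D2:**
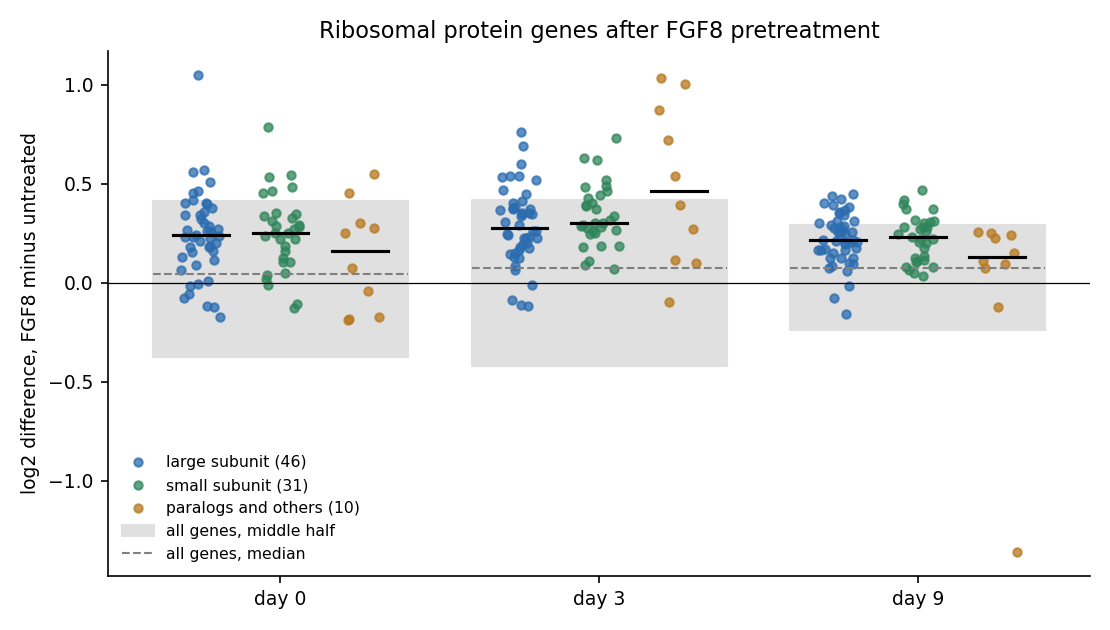
FGF8 minus untreated values of log2(normalized count + 1) (vertical axis) for the 87 genes on days 0, 3 and 9, with 1 point per gene, coloured by subunit; black bars are group medians. The grey band is the interquartile range of all 13256 genes and the dashed line their median; most points lie above that line, and the low point on day 9 is Rps4l at -1.36.

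The large and small subunit genes behaved alike. Medians of the large subunit genes were 0.24, 0.28 and 0.22 on days 0, 3 and 9, and those of the small subunit genes were 0.25, 0.30 and 0.23. All 31 small subunit genes had a higher value in the FGF8 library on days 3 and 9. The 10 tested paralogs and others were more scattered, with medians of 0.16, 0.46 and 0.13.

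On each of the 3 days the FGF8 library was higher for 68 of the 87 genes (78.2%), against 31.2% of all genes, and lower for 1 gene, Rpl10, against 21.6%. At the 1.2-fold rule on every day there were 10 genes (11.5%), close to the 10.0% of all genes: Rpl14, Rpl30, Rpl32, Rpl35, Rpl36 and Rpl37 of the large subunit and Rps6, Rps13, Rps18 and Rps25 of the small. Which genes moved most was not the same on day 0 as later. Across the 87 genes, the differences of day 3 and day 9, which share no library, had a Pearson's r of 0.42, while those of day 0 had an r of -0.03 with day 3 and -0.15 with day 9; these describe the genes of 6 libraries, and genes are not independent replicates.

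A treatment effect common to the days was fitted with day as a block. None of the 88 genes tested was called by edgeR's quasi-likelihood test (Benjamini-Hochberg adjusted p under 0.05), where 0.0206% of 14569 genes were called higher and 1.25% lower. At an unadjusted p under 0.05 there were 12 genes, all higher (10.3% of all genes were higher at that level and 12.9% lower), and DESeq2's Wald test also called 0 and had 19 of 87 (21.8%) at that level, where 25.3% of all genes were. The estimate was above 0 for 84 of the 88 genes, with a median of 0.23 against 0.04 over all genes. Over the 6021 genes that averaged 1000 or more normalized counts the median was 0.09, and over the 80 ribosomal protein genes among them 0.23. The smallest p belonged to Rpl30, Rpl35 and Rpl36. For Rpl30, an RNA-binding protein of the large subunit, the estimate was 0.40 ± 0.12 (SE), with an edgeR adjusted p of 0.157. Rpl35 gave 0.39 ± 0.12 (adjusted p = 0.164, edgeR) and Rpl36 gave 0.45 ± 0.14 (adjusted p = 0.164, edgeR). Without the day 0 libraries, edgeR still called 0 of 87 genes, where 3.96% of all genes were called higher and 11.6% lower. In that fit 18 of the 87 genes had an unadjusted p under 0.05, of which 17 were higher and 1 lower. These are 20.7% of the genes tested, below the 32.2% of all genes at that level.

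Among the large subunit genes, Rpl30 had 798 (untreated) and 1091 (FGF8) normalized counts on day 0, 3999 and 5724 on day 3, and 4329 and 5297 on day 9. Rpl36 had 1116 and 1361, 2655 and 4495, and 3088 and 3949. The FGF8 value of both genes was the higher one in each pair. Rpl21 gave the largest difference of day 0, with 325 and 673 normalized counts, a log2 difference of 1.05 (counting interval 0.82 to 1.29); on days 3 and 9 it was 0.31 and 0.17. Rpl12, a stalk-base protein, was 0.57 higher on day 0, 0.20 on day 3 and -0.02 on day 9. Rpl27 and Rpl39 were among the 3 highest on day 9, at 0.45 and 0.44.

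Rpl5 and Rpl11, which bind 5S rRNA and, when free, the p53 regulator Mdm2, were higher on different days. Over days 0, 3 and 9, Rpl5 differed by 0.51, -0.01 and 0.21, and Rpl11 by 0.16, 0.53 and 0.15. Rpl13a, often used as a reference gene, had 15438 and 21300 normalized counts on day 0, a difference of 0.46, and differed by 0.19 and 0.10 later.

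Few genes of the large subunit ran against the rest. Rpl10, a protein of the intersubunit face that joins the 60S subunit late, had 10635 and 10059 normalized counts on day 0, 8205 and 7588 on day 3, and 6926 and 6207 on day 9. Its differences of -0.08, -0.11 and -0.16 kept their sign under each scaling tried and were far smaller than 1.2-fold. In the test over the 3 days its estimate was -0.14 ± 0.14 (SE), with an edgeR adjusted p of 0.575. Rpl10a was lower on day 3 only (-0.12), and Rpl7a was at -0.13 on day 0 with a counting interval that reaches 0.00, then 0.37 and 0.40 higher.

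The stalk proteins, which recruit translation factors to the ribosome, differed among themselves. Rplp2 was 0.25, 0.69 and 0.39 higher on days 0, 3 and 9. Rplp1, its partner in the stalk dimer, was at -0.01, 0.23 and 0.08. Rplp0, which anchors them, was at 0.11, -0.09 and -0.08, with 13947 and 15094, 23921 and 22467, and 17937 and 16983 normalized counts in the untreated and FGF8 libraries of the 3 days. No test separated these genes.

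Among the small subunit genes, Rps6, the classical substrate of S6 kinase, had 4813 and 6733 normalized counts on day 0, 7228 and 9123 on day 3, and 8160 and 9899 on day 9. Its differences were 0.48, 0.34 and 0.28. Rps18, of the 40S head and another common reference gene, was 0.46, 0.40 and 0.27 higher. Rpsa, the laminin receptor protein, was 0.33, 0.32 and 0.22 higher. Rps27a, made as a fusion with ubiquitin, was 0.54 and 0.63 higher on days 0 and 3 and 0.03 on day 9, where its interval includes 0.

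Rps23, which sits near the decoding centre, had the second largest difference of day 0, with 2781 and 4792 normalized counts (0.79; interval 0.71 to 0.87), and 0.24 and 0.28 later. Rps28 was at -0.13 on day 0 and at 0.37 on both later days. Rps24 had the largest difference of day 9, at 0.47, after 0.10 and 0.26. Day 0 and the later days thus ranked the small subunit genes differently.

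Genes with and without a tract near the annotated start were both higher. The 27 tested genes with a tract had medians of 0.25, 0.35 and 0.25 on days 0, 3 and 9, and the 38 without had 0.24, 0.28 and 0.22. Coding length moved with the difference on the later days: across 85 genes its r with the FGF8 difference was 0.24 on day 0, -0.42 on day 3 and -0.32 on day 9, so that shorter genes had the larger differences on days 3 and 9. The genes share their libraries, and the 2 libraries of day 3 held 19468173 and 38031701 counts; the part of length or depth in the result was not tested.

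Other parts of the translation machinery gave differences of varied size after FGF8. The 38 ribosome biogenesis genes had medians of 0.84, 0.45 and 0.24 on days 0, 3 and 9, with 37, 37 and 36 of them above 0, and edgeR called 0 of them. Rrs1, needed for 60S assembly, was highest on day 0 at 1.33, and Nhp2 and Nop10 of the box H/ACA particle on day 3 at 0.93 and 0.90. The 78 mitochondrial ribosomal protein genes had medians of 0.30, 0.75 and 0.30 and were all above 0 on days 3 and 9, with 0 calls by edgeR. The 14 listed genes with TOP mRNAs, mostly translation factors but with Hnrnpa1 and Nap1l1 among them, had medians of 0.33, 0.12 and 0.09 (0 calls). Of these 14 genes, 9, 2 and 0 were at least 1.2-fold higher, where 34.2%, 35.8% and 27.7% of all genes were. Among the 17 tested regulators (median 0.21, 0.31 and 0.14; 0 calls), Eif4ebp1 was highest on days 0 and 3, at 1.81 and 0.84, and Myc, a driver of ribosome synthesis, was at 0.93, 0.34 and -0.16.

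Fau and Rack1 are ribosome proteins outside the symbol rule. Fau, the fusion that yields Rps30, was at 0.16, 0.39 and 0.13 on days 0, 3 and 9, and Rack1 was at 0.27, 0.15 and 0.01. Proliferation markers (Mki67, Top2a, Ccnb1, Cdk1, Mcm2, Pcna) summed to 51723, 33116 and 23177 normalized counts in untreated cells and to 61512, 42556 and 29460 after FGF8. All 6 were above 0 on days 3 and 9 and 5 of 6 on day 0, and none is at 0 in any library. Preadipocyte markers (Pdgfra, Pdgfrb, Ly6a, Cd34, Dlk1) summed to 130131, 37585 and 29729 in untreated cells and to 29266, 10254 and 6869 after FGF8, and edgeR called 3 of 5 lower. Endothelial markers (Pecam1, Cdh5, Kdr, Tek) summed to 1620, 210 and 200 in untreated cells and to 71.7, 34.4 and 35.8 after FGF8. The day 0 sums were mostly Kdr (1288 untreated, 7.68 after FGF8) and Tek (326 and 42.2). Pecam1 (1.47 and 12.8) and Cdh5 (4.41 and 8.96) were near the floor and higher after FGF8 on day 0, so the list does not move as one. Adipocyte markers summed to 210058 and 415771 on day 3 and to 368180 and 426865 on day 9 in untreated and FGF8-pretreated cells, with all 5 higher on both days, and brown markers summed to 3693 and 11482 on day 3. These sums differ with the treatment, as the ribosomal protein transcripts do, and their part in the result was not tested.

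The next comparison followed the genes from day 0 to day 3 of differentiation. The median was -0.13 in untreated and -0.06 in FGF8-pretreated cells (-0.03 and 0.02 with TMM scaling, so that the sign after FGF8 depends on the scaling), but single genes moved far in both directions. In untreated cells 30 of 87 genes (34.5%) were at least 1.2-fold higher on day 3 (40.1% of all genes) and 38 (43.7%) lower (38.8%). After FGF8, 35 genes were higher (42.3% of all genes) and 36 lower (41.8%). At 2-fold, 15 genes were higher (20.6% of all genes) and 17 lower (14.7%) in untreated cells, and 14 higher (25.2%) and 18 lower (21.2%) after FGF8. The value was above 0 for 39 genes (50.5% of all genes) and 42 genes (49.8%). The standard deviation over the genes was 1.54 and 1.60. In the model with treatment as a block, edgeR's quasi-likelihood test called 28 of 88 genes higher and 24 lower at an adjusted p of 0.05, against 26.2% and 19.8% of all genes. At an unadjusted p under 0.05 there were 30 higher (30.9% of all genes) and 26 lower (25.1%). With library totals as the scaling it called 18 higher and 29 lower (22.3% and 24.9% of all genes). The 2 steps share no library, and across the 87 genes they had an r of 0.98 (0.97 without Rpl29), but both start from the day 0 libraries that stand apart.

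**Figure D3:**
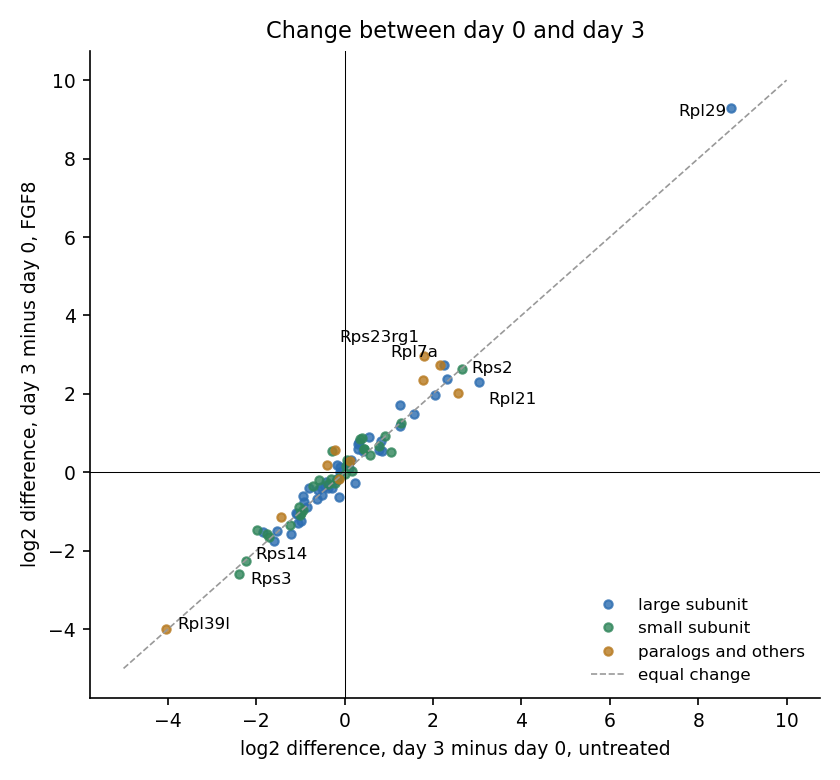
Difference of log2(normalized count + 1) between day 3 and day 0 for the 87 genes, in untreated cells (horizontal) and in FGF8-pretreated cells (vertical), coloured by subunit; the dashed line marks equal change. The points follow the line from Rpl39l near -4 to Rpl29 near 9, whose differences are 8.74 and 9.30.

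Rpl29 of the large subunit (chr9:106306586-106311297 in GRCm39) was the extreme. It had 5 counts in each day 0 library and then 2804, 4355, 6625 and 5091 counts in the untreated day 3, untreated day 9, FGF8 day 3 and FGF8 day 9 libraries. The edgeR estimate for day 3 against day 0 was 9.27 ± 0.26 (SE; adjusted p = 0.00192). Of the 50-base stretches of its coding sequence, 90.3% occur elsewhere in GRCm39, and the most repeated stretch occurs at 32 other places.

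The other genes with the strongest rise belonged to both subunits. Rps2, which lines the mRNA entry channel, rose from 1143 to 7241 normalized counts in untreated cells and from 1394 to 8700 after FGF8 (2.72 ± 0.17; adjusted p = 0.00249, edgeR). Rpl30 rose by 2.42 ± 0.16 (adjusted p = 0.00249, edgeR), Rpl7a by 2.55 ± 0.22 (adjusted p = 0.00324, edgeR) and Rpl41 by 2.07 ± 0.18 (adjusted p = 0.00324, edgeR). Rpl21 went from 325 to 2693 and from 673 to 3330 normalized counts. The most repeated stretch occurs at 36 other places for Rps2, 45 for Rpl7a and 44 for Rpl21.

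Other genes fell. Rps3, a protein of the mRNA entry channel that also acts in DNA repair, fell from 28937 to 5564 normalized counts in untreated cells and from 35099 to 5843 after FGF8 (-2.42 ± 0.21; adjusted p = 0.00322, edgeR). Rps14, of the 40S platform, fell from 14248 to 3049 and from 16611 to 3451 (-2.18 ± 0.17; adjusted p = 0.00305, edgeR). Rps15a fell by 1.60 ± 0.16, Rpl36a by 1.45 ± 0.15 and Rpl22 by 1.61 ± 0.17, with edgeR adjusted p values of 0.00419, 0.00421 and 0.00440. For Rps3, 8.09% of the 50-base stretches occur elsewhere and no stretch at more than 1 other place.

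The number of other places moved with this step. The 24 genes whose most repeated stretch has fewer than 4 other places had medians of -0.68 (untreated) and -0.57 (FGF8), and edgeR called 4 higher and 12 lower. The 45 genes with 4 to 11 other places had medians of -0.18 and -0.06, with 15 higher and 10 lower. The 16 genes with 12 or more had medians of 0.50 and 0.49, with 8 higher and 2 lower. Over all genes tested, edgeR called 26.2% higher and 19.8% lower. Across 85 genes with a coding sequence, the log2 of the number of places plus 1 had an r of 0.52 with the untreated and 0.49 with the FGF8 step. These genes share their libraries, and the part of read placement in the result was not tested. The FGF8 difference within a day had an r of 0.09, -0.01 and 0.21 with the same number on days 0, 3 and 9.

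**Figure D4:**
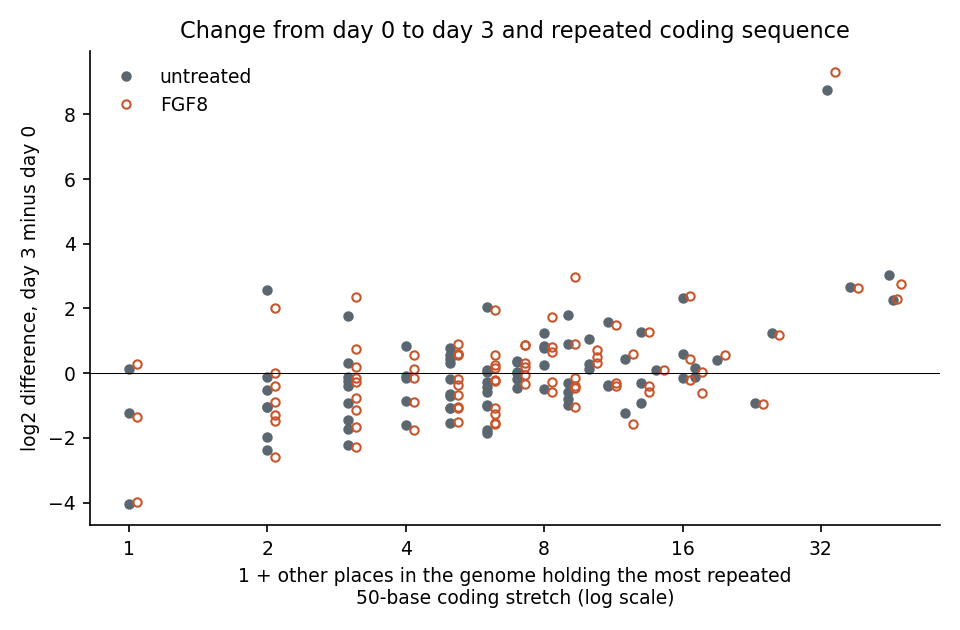
Difference of log2(normalized count + 1) between day 3 and day 0 (vertical) against 1 plus the number of other places in GRCm39 that hold the most repeated 50-base stretch of the coding sequence (horizontal, log scale), for 85 genes, untreated filled and FGF8 open (drawn slightly to the right). Genes with few other places lie mostly below 0, while those with more than 30 (Rpl29, Rps2, Rpl7a, Rpl21) lie above 2.

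From day 3 to day 9 the changes were small and mostly downward. The median was -0.12 in untreated and -0.19 in FGF8-pretreated cells, against -0.04 and -0.01 over all genes. In untreated cells 22 of 87 genes (25.3%) were at least 1.2-fold lower (31.8% of all genes) and 5 higher (29.4%). With library totals, 43 genes (49.4%) were lower, against 43.4% of all genes. After FGF8, 36 genes (41.4%) were lower (31.0%) and 1 was higher (30.5%), and 76 of the 87 were at or below 0. At 2-fold, 0 genes passed in either direction, where 8.90% of all genes were higher and 4.50% lower in untreated cells, and 8.24% and 6.18% after FGF8. The value was above 0 for 33 genes (46.7% of all genes) in untreated cells and for 11 (48.8%) after FGF8. EdgeR's quasi-likelihood test called 0 of 88 genes, with 7 at an unadjusted p under 0.05, all lower (10.3% of all genes were lower at that level). Over all genes, edgeR called 0.0618% higher and 0.00686% lower. DESeq2's Wald test called 0 of the 88 genes, with 8 (9.09%) at an unadjusted p under 0.05, all lower. Of all genes, 9.31% were lower at that level in DESeq2.

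The genes with the smallest p were Rpl10a, Rpl22l1 and Rps19. Rpl10a had 6572 and 4026 normalized counts on days 3 and 9 in untreated cells and 6051 and 4394 after FGF8, an estimate of -0.61 ± 0.17 (SE; adjusted p = 0.155, edgeR). Rps19, a 40S protein mutated in Diamond-Blackfan anaemia, was at -0.33 and -0.54, and Rps28 at -0.54 in both treatments. Rps24 (0.27), Rps14 (0.15) and Rps6 (0.12) were the highest after FGF8. The biogenesis genes were lower by more, with medians of -0.54 and -0.56, and so were the proliferation markers, at -0.51 and -0.69; their part in the result was not tested. The mitochondrial ribosomal protein genes were at 0.46 and 0.06.

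The paralogs and retrogene copies had patterns of their own. Rpl36al, a copy of Rpl36a (81.4% of its 50-base stretches occur elsewhere), took 7.12% and 7.28% of the pair's counts on day 0, 42.9% (untreated) and 53.4% (FGF8) on day 3, and 52.1% and 52.0% on day 9. On day 3 its FGF8 value was 0.87 higher, with 1671 and 3056 normalized counts. Rpl22l1, which stands in for Rpl22 on some ribosomes, took 19.1% and 14.4% of its pair on day 0, 21.0% and 20.2% on day 3, and 14.7% and 14.8% on day 9. It was the lowest gene of day 0 at -0.19 (2684 and 2352 normalized counts).

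Rps4l, an intronless relative of the X-linked Rps4x (chr6:148256098-148257431), departed most from the set. In untreated cells it had 185, 1106 and 1788 normalized counts on days 0, 3 and 9, and after FGF8 it had 253, 1033 and 696. Its FGF8 difference was 0.45 on day 0 (counting interval 0.12 to 0.79), -0.10 on day 3 and -1.36 on day 9 (-1.47 to -1.25). It made up 20.2% of the pair's counts on day 9 in untreated cells and 7.52% after FGF8, while Rps4x had 7059 and 8561 normalized counts there. Only 17.6% of its 50-base stretches occur elsewhere, at no more than 1 other place each.

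Rps23rg1 and Rpl37rt, retroposed copies of Rps23 and Rpl37, were the 2 genes past 2-fold on day 3. Rps23rg1 had 347 and 698 normalized counts there, a difference of 1.01, and Rpl37rt had 564 and 1155, a difference of 1.03. On day 9 they differed by 0.25 and 0.23. Their counts cannot be told apart from reads of their parents where the copies are alike. Rps23rg1 took 5.66% of its pair on day 3 in untreated cells and 9.25% after FGF8. Both also rank among the 3 highest of the step from day 3 to day 9 in untreated cells (0.64 and 0.66), whereas after FGF8 that step was -0.12 and -0.15.

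**Figure D5:**
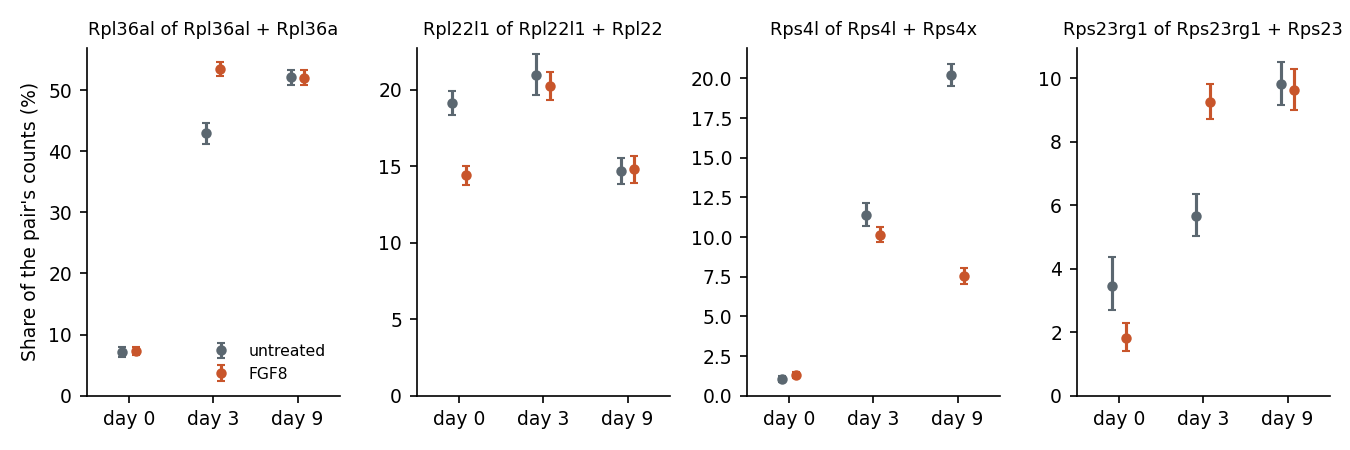
Share (%) of the counts of a gene pair taken by the paralog or retrogene copy, by day, untreated in grey and FGF8 in orange, with exact binomial 95% intervals (counting error only) and a separate axis from 0 for each pair. Rps4l reaches 20.2% on day 9 in untreated cells and 7.52% after FGF8, and Rpl36al passes from about 7% on day 0 to 52% on day 9 in both.

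The remaining copies were low or steady. Rpl39l, known from the testis, had 53 and 64 counts on day 0 and 3 to 6 later. Rpl3l, known from muscle and heart, had 2 and 0 counts in the untreated and FGF8 libraries of day 0, 3 and 16 on day 3, and 34 and 24 on day 9, when Rpl3 had 15680 and 15325. Rpl32l had 8 counts in each day 0 library and 44 to 105 later. Rpl7l1 took 16.4% to 23.0% of the counts it shares with Rpl7. Rps27l, a p53 target, had 1260 to 3319 counts and differed after FGF8 by -0.04, 0.54 and 0.24. Rps19bp1 was at 0.55, 0.72 and 0.11.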

How the data were processed

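RNA sequencing counts of 6 libraries were used, 1 per treatment and day. Per the labels and the methods, the authors trimmed reads with Trim Galore, aligned them to mm39 (GRCm39) with HISAT2 and deposited raw featureCounts counts per gene; the versions, annotation, strand setting and treatment of multiply matching reads are not given in the sources used here. Reads of near-identical copies may therefore be split or lost.

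Counts were divided by DESeq2 (1.42.0) size factors over the 6 libraries. Differences are of log2(normalized count + 1), over genes with a mean of at least 20, with Clopper-Pearson 95% intervals of the ratio of 2 counts, which like the shares cover counting error only. Depth was 16403254 to 38551551 counts. Day and treatment effects were fitted with edgeR (4.0.16; TMM, filterByExpr, quasi-likelihood, day plus treatment, 2 residual degrees of freedom), where days or treatments stand in for replicates, so p-values measure only the spread between these libraries. An FGF8 response that differs between days, or a day change that differs between treatments, counts as error in this fit. On simulated counts for the FGF8 contrast, 199 of 200 genes changed 4-fold and 10 unchanged genes of 14294 tested were called. The 4-fold change there was one shared by the days. Recovery of smaller changes, such as 1.2-fold, or of FGF8 changes that differ between days, was not tested. Each SE of an edgeR estimate was calculated back from the test, as the size of the estimate over the square root of its F statistic. Fits ran in R 4.3.3, the rest in Python 3.11.15 with pandas 2.3.3 and scipy 1.17.1.

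Levels per kb use coding length (GENCODE M39, CCDS transcript where tagged) in place of the exon length first chosen. Coding stretches of 50 bases were searched in GRCm39. Named genes were the 5 highest and 5 lowest per kb, the 3 highest and 3 lowest of each of the 7 pairwise comparisons among genes averaging 100 or more normalized counts in both libraries compared, up to 5 called genes per direction or else the 3 smallest p in each edgeR contrast, the paralogs and their counterparts, the stalk proteins and Rpsa, and Rpl5, Rpl11, Rps6, Rps27a, Rpl13a and Rps18, with Fau, Rack1, Myc and the ends of each list (1 gene of the rule is not reported here); Xist, the Y-linked genes, Ifi202b, Gbp2b, the 10 genes higher by 1.2-fold on every day, and Rpl37rt, Rps23rg1 and Rpl32l beyond the rule were named after their values were seen. The genes and lists were chosen with earlier results of these data known.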

Additional observations from a re-analysis of the deposited data

Results flagged for a closer look

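Rps4l moved in opposite directions between conditions. Its FGF8 difference was 0.45 on day 0, -0.10 on day 3 and -1.36 on day 9, so that the FGF8 library was more than 1.2-fold higher on day 0 and lower on day 9. Its step from day 3 to day 9 was 0.69 in untreated cells and -0.57 in FGF8-pretreated cells. With 1 library per condition, the difference between these effects was not tested. No other ribosomal protein gene averaging 100 or more normalized counts in both libraries was 1.2-fold or more higher in one condition and lower in another under the same comparison.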

How the results depend on the processing

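No paired analysis was possible because the labels carry no replicate numbers, with 1 library per condition; the FGF8 fit instead had day as a block, and days were left out in turn. Across scalings the median FGF8 difference of the genes minus that of all genes was 0.21, 0.23 and 0.14 on days 0, 3 and 9. A change of scaling moves every gene of a comparison by nearly the same amount. This value could therefore hardly change, and it is no check of the result. Library totals moved the median of all genes by -0.11 for FGF8 on day 3, by -0.21 for day 3 against day 0 after FGF8 and by -0.14 for day 9 against day 3 in untreated cells. A median is listed here where it left its exact order-statistic 95% interval; 59 of 70 did not. FGF8 medians became 0.31, 0.19 and 0.18 with library totals (days 0, 3 and 9), 0.26 and 0.15 with size factors within the pair (days 3 and 9), and 0.28 and 0.13 over the genes with fewer than 4 other places (days 0 and 9). Over those genes, chosen after seeing the data, day 3 against day 0 was -0.68 and -0.57. Day 9 against day 3 in untreated cells became -0.17 with TMM and -0.26 with library totals. EdgeR's 28 genes higher on day 3 became 18 with library totals and 18 without the treatment block. Leaving out day 3 or day 9, 0 ribosomal protein genes reached an unadjusted p under 0.05 for FGF8 (10.6% and 13.6% of all genes did). DESeq2 called 472 genes higher and 1220 lower after FGF8 among all genes (edgeR 3 and 182). Adding the -ps symbols gave shares of 2.53%, 2.00% and 1.64% untreated and 3.16%, 2.24% and 1.84% after FGF8. Without Rpl41, an alternative chosen after seeing the data, the large to small ratio was 1.27, 1.39 and 1.42 untreated and 1.30, 1.34 and 1.39 after FGF8. No direction reversed among the results with a call, where a median counted as reversed only if its main value reached 1.2-fold. The smaller median of day 3 against day 0 after FGF8 did change sign, from -0.06 to 0.02 with TMM. For Rps27, with 15 to 46 counts, no difference was detectable at this depth.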
